A study of Mus musculus with 45 samples.

Results

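Mouse hippocampal primary neurons were stimulated with bicuculline (Bic, 50 µM) and then silenced with tetrodotoxin (TTX, 1 µM) on a short or a long schedule, and the RNA-seq libraries of both schedules were compared. Neurons of the short TTX arm received Bic for 0.5 h and TTX for a further 0.5 h, and those of the long TTX arm received Bic for 1 h and TTX for a further 1 h. Bic stayed in the medium during the block, and neither arm received NMDA or TBOA. The 10 libraries compared here, 5 in each arm, belong to a series of 45 libraries that also holds untreated controls, uninterrupted Bic for 0.5, 1 or 2 h, and arms with NMDA or TBOA. Each of 5 culture preparations, numbered 1, 3, 6, 7 and 8, gave 1 library to each arm, so the arms were compared within preparations. All cultures came from newborn C57BL/6N mice, were grown with 1% rat serum, received AraC on day 3 in vitro and were treated on day 10 or 11 by the labels, with day 11 given for the RNA-seq cultures in the study's methods. Priming time and block time both double between the arms, so the effects of longer stimulation and of longer silence cannot be told apart from these 10 libraries alone.

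Bic blocks GABA type A receptors and so releases bursts of action potential (AP) firing, during which calcium entry activates kinases that act on transcription factors such as CREB and SRF. Immediate early genes (IEGs) are transcribed within minutes from factors already present and often give short-lived mRNAs, and effector genes for synapses, secretion and metabolism follow. TTX blocks voltage-gated sodium channels and stops firing, after which the level of an mRNA depends on how much synthesis continues and how fast the molecule is degraded.

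Library totals over all genes lay between 23060670 and 74009760 counts in the short arm and between 23895011 and 64680212 in the long arm. Markers of neurons summed to between 6753 and 7825 CPM (counts scaled to library size) over both arms. The sums were 1058 to 1649 for 9 astrocyte markers, 100.3 to 189.8 for oligodendrocyte lineage markers and 8.34 to 13.5 for microglial markers. They run over different genes and list sizes, without a correction for gene length, so they do not rank the cell types. None of the 9 astrocyte markers and none of the 7 microglial markers tested differed between the arms by edgeR's test. Of 8 inhibitory neuron markers, 2 were higher in the long arm, Gad1 (log2 fold change of long over short, 0.37) and Gad2 (0.38). Of 7 oligodendrocyte lineage markers tested, 2 were lower, Olig2 (-0.85) and Olig1 (-0.24), and the list median was -0.04. Of 6 general neuron markers 3 were higher and 1 lower, of 7 excitatory neuron markers 2 were higher and 1 lower, and of 5 markers of proliferating cells 1, Pcna (0.39), was higher. The summed level of the proliferation markers did not overlap between the arms (31.9 to 39.4 CPM in the short and 42.7 to 52.8 CPM in the long arm). In these bulk samples, fewer cells of a type and less RNA per cell cannot be told apart. The part of these markers in the results below was not tested.

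The question of the comparison is what an activity-driven transcriptome looks like after a brief stimulus and a brief silence, against a longer stimulus and a longer silence. Of 22 synaptic effector genes 15 were higher and 2 lower in the long arm, and of 32 genes of secreted proteins 20 were higher and 3 lower, with the synaptic scaffold gene Homer1 and the activin subunit gene Inhba the most positive. Ccn1, itself on the secreted list, Btg2, Kcnj2, Tob1, Dusp1 and Trib1 were the most strongly lower genes of the naming rule. By edgeR's quasi-likelihood test with the preparation as a block, 1937 of 16801 genes tested (11.5%) were higher and 1693 (10.1%) were lower in the long arm at an adjusted p under 0.05. Of these, 206 of the higher genes and 28 of the lower genes differed at least 2-fold. The median log2 fold change over all genes tested was -0.01. Without the block the numbers were 1194 and 965.

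Homer1 encodes a postsynaptic scaffold protein, including a short activity-induced form that the gene counts do not separate from the long form. It lies on chr13:93299635-93405129 (GRCm38, plus strand) and was read in the short arm at 120, 140, 167, 171 and 153 CPM (preparations 1, 3, 6, 7 and 8 in this order, as for every series of values here), and in the long arm at 828, 742, 844, 781 and 940 CPM. Every long library was above every short one, with a log2 fold change of 2.46 ± 0.08 (SE) and an edgeR adjusted p of 7.1e-09. Inhba, the activin βA subunit gene with neuroprotective roles, stood at 11.7, 9.76, 13.8, 11.2 and 7.81 CPM in the short arm and at 41.6, 36.6, 49.5, 45.7 and 43.8 CPM in the long arm. The arms did not overlap (2.02 ± 0.09). Bdnf, the neurotrophin gene, was at 144, 152, 155, 195 and 155 CPM against 287, 284, 343, 315 and 355 CPM, again without overlap (0.98 ± 0.07). Other genes with the largest positive differences were Stil (2.57), which is known from centriole duplication, Pim1 (2.19), a serine/threonine kinase gene, Sertad1 (2.16), Baz1a (2.16), a chromatin remodelling gene, Rnf217 (2.12), a ubiquitin ligase gene, Zfp516 (2.11), Zdbf2 (2.08), Tnfaip6 (2.00), a hyaluronan-binding secreted protein gene, and Col10a1 (2.00). All of these were higher in the long arm in 5 of 5 preparations.

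Klf10, a Krüppel-like transcription factor gene induced by TGF-β, was higher in the long arm by 2.15 ± 0.07. Its levels were 22.3, 25.4, 31, 25.9 and 33.1 CPM in the short arm and 122, 123, 118, 120 and 130 CPM in the long arm. Its means were 24.8 CPM in the control, 23.3, 20.4 and 28.9 CPM after 0.5, 1 and 2 h Bic and 27.5 CPM in the short arm, below the 123 ± 4.45 CPM (SD, n = 5) of the long arm, and it rose from 1 to 2 h Bic by 0.50 on the log2 scale. The plot of levels by condition shows this beside Homer1, which also climbed by 2 h of uninterrupted Bic (644 ± 66.9 CPM).

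**Figure D1:**
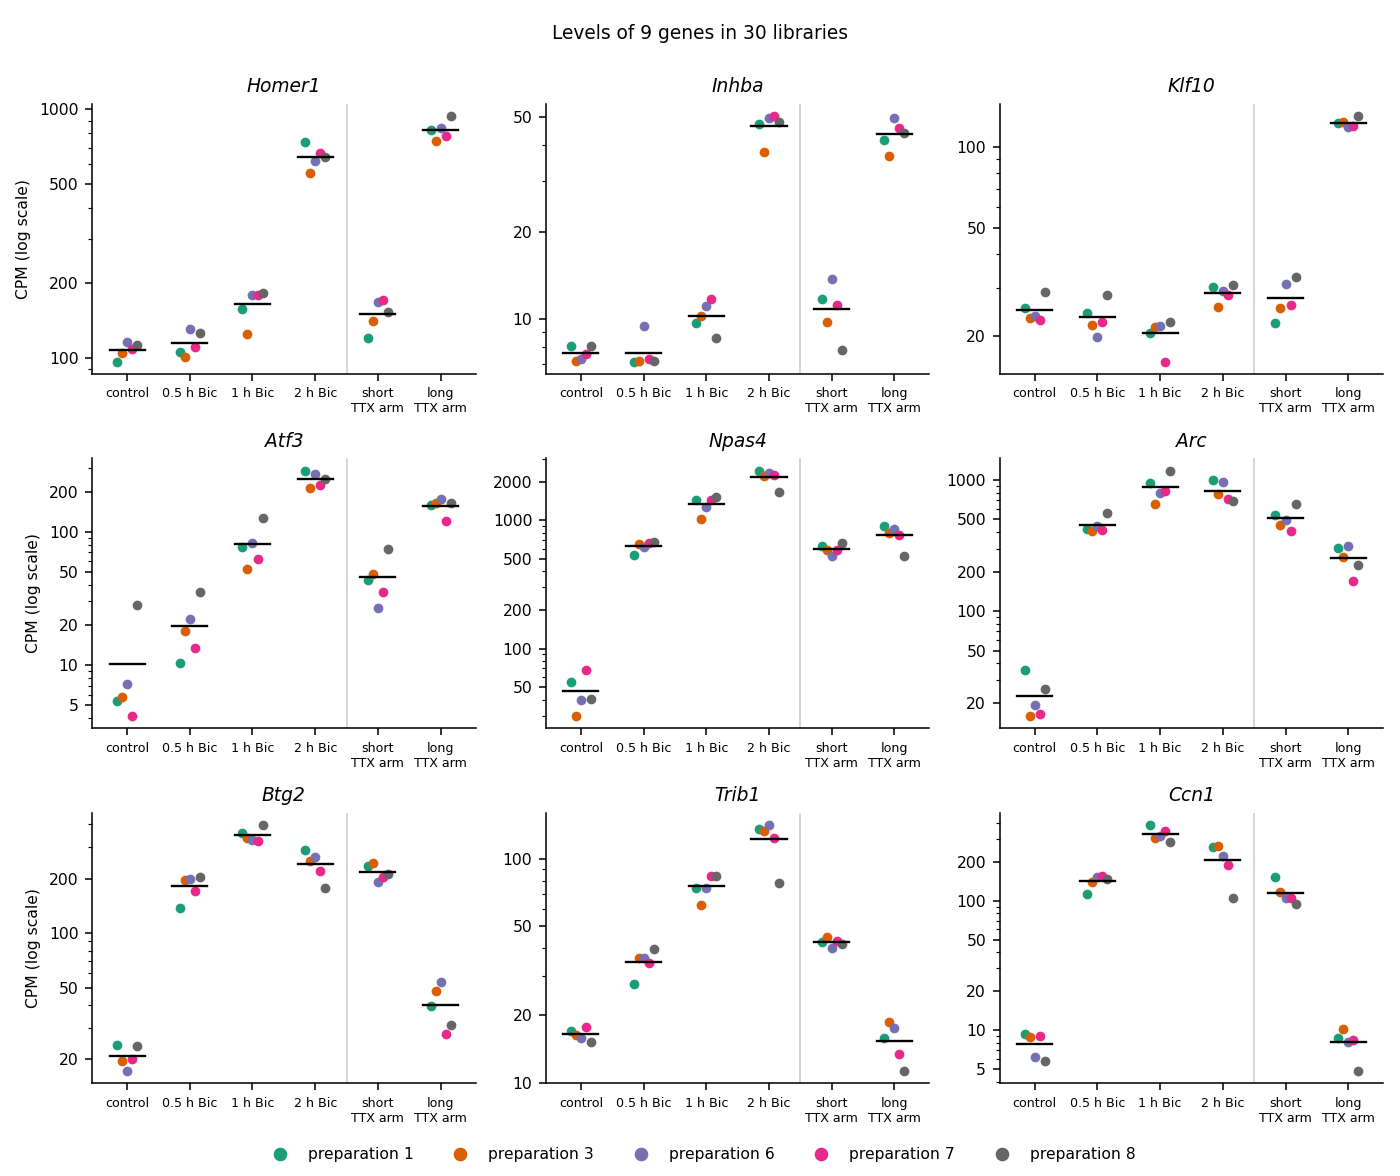
Levels in CPM (log axis) of 9 genes in 30 libraries, by condition. Points are single libraries coloured by culture preparation and black lines are means of 5. Homer1, Inhba and Atf3 are high after 2 h Bic and in the long TTX arm, Klf10 is high only in the long TTX arm among these 6 conditions, and Trib1 and Ccn1 have means near the control mean in the long TTX arm (15.4 against 16.4 and 8.08 against 7.87 CPM), with Btg2 at 39.8 against 21 CPM.

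Ccn1 encodes a secreted matricellular protein and had the largest difference of all genes that met the naming rule. On chr3:145646976-145649981 (minus strand), it was read at 152, 116, 105, 104 and 94.2 CPM in the short arm and at 8.78, 10.2, 8.17, 8.39 and 4.87 CPM in the long arm. The long arm was at the control level (8.08 ± 1.96 against 7.87 ± 1.72 CPM, SD, n = 5 each), whereas the short arm was far above it, and the log2 fold change was -3.82 ± 0.10. Btg2, an antiproliferative gene that also promotes deadenylation of mRNAs, was at 235, 243, 193, 204 and 213 CPM in the short arm and at 39.3, 47.7, 53.4, 27.8 and 30.9 CPM in the long arm. Its long-arm mean was above the control mean of 21 CPM, with no overlap between the arms (-2.49 ± 0.12). Trib1, a pseudokinase gene that restrains MAP kinase signalling, was at 42.8, 44.95, 40.03, 43 and 41.7 CPM against 15.9, 18.7, 17.5, 13.4 and 11.3 CPM, and the long arm again met the control (15.4 ± 3.02 against 16.4 ± 0.969 CPM). Dusp1, a phosphatase gene that inactivates MAP kinases, was at 120, 107, 87.2, 108 and 101 CPM against 42.5, 37.6, 49.3, 29.5 and 26.1 CPM, still above its control mean of 17.7 CPM.

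Kcnj2, the gene of an inward rectifier potassium channel, was at 32.1, 29, 29.3, 24 and 28.9 CPM in the short arm and at 6.93, 7.48, 9.05, 4.87 and 5.70 CPM in the long arm, where its mean was below the control mean (6.81 ± 1.62 against 10.2 ± 2.09 CPM). Means under the control were also seen in the long arm for Mycn (16.6 ± 3.71 against 32.1 ± 4.93 CPM), a growth-promoting transcription factor gene, and Mex3b (19.1 ± 2.35 against 29.5 ± 2.02 CPM), an RNA-binding protein gene. No difference between an arm and the control was tested here. The other lower genes of the naming rule were Tob1 (-1.58), a partner of Btg2 in deadenylation, Dusp6 (-1.33), an ERK phosphatase gene, Zc3hav1l (-1.17), Klf2 (-1.13) and Cebpd (-1.11), and each was lower in the long arm in 5 of 5 preparations. Of these, Klf2 overlapped between the arms, with a long-arm library of preparation 3 at 1.46 CPM.

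Promoter sequences were read from RefSeq (GRCm38.p6) as the 250 bases before each transcription start, and 3 letter patterns were searched on both strands, the full cAMP response element (CRE, TGACGTCA), the AP-1 element (TRE, TGAGTCA or its complement TGACTCA) and the CArG box of SRF. A CRE does not contain a TRE. The CRE was found in 1.55% of 32851 promoters in the table, the TRE in 4.46% and the CArG box in 1.47%. By gene, with any start counted, shares were taken over protein-coding genes that had a promoter sequence. The CRE was found for 2.97% of 11229 genes tested, for 5.57% of 1401 genes higher and for 1.89% of 1323 genes lower in the long arm. Among genes differing at least 2-fold, it was found for 5.56% of 126 higher and for 3 of 15 lower ones. With Bic alone, it was found for 9.14% of 175 genes higher at 1 h than at 0.5 h. The share was 6.43% of 1198 genes higher at 2 h than at 1 h Bic. Of the 24 genes with the largest differences, 19 had a promoter in the table and 4 held 1 of the patterns, 2 of them among the strongest lower genes and 2 among the strongest higher genes. The CRE-bearing ones are shown because the pattern stands before genes that moved in opposite directions, with the CRE in capitals.
Btg2, lower in the long arm, chr1:134079156-134079405, minus strand: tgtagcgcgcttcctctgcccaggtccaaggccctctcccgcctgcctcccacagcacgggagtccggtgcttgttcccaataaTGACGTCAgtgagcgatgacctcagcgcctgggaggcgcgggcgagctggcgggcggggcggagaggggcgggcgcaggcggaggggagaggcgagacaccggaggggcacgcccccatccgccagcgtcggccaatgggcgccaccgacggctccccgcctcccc
Dusp1, lower in the long arm, chr17:26508473-26508722, minus strand: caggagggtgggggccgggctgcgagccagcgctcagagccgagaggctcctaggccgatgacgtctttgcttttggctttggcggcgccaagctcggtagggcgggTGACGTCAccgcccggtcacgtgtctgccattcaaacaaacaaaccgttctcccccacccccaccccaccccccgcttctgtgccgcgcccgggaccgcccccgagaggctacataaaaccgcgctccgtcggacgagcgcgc
Zdbf2, higher in the long arm, chr1:63273019-63273268, plus strand: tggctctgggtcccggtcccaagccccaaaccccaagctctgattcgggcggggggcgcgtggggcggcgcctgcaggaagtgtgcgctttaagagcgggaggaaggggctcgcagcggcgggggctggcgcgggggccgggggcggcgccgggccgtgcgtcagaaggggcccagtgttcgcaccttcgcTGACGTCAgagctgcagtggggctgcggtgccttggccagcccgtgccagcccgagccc

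The CRE began 166 bases before the start of Btg2, 143 before that of Dusp1 and 59 before 1 of the starts of Zdbf2, and the other Zdbf2 start in the table held none of the patterns. Tnfaip6 held a TRE 142 bases before its start. A match is a description of letters in this window, and its absence before the other genes draws nothing about the factors.

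Among the IEGs that the study follows, the arms differed in opposite directions. Nr4a1, an orphan nuclear receptor gene, was at 420, 431, 403, 425 and 466 CPM in the short arm and at 216, 257, 337, 191 and 153 CPM in the long arm, without overlap (-0.95 ± 0.14). Arc, which encodes a capsid-like postsynaptic protein, was at 540, 451, 497, 411 and 652 CPM against 302, 259, 316, 170 and 223 CPM, also without overlap (-1.03 ± 0.11). Fos, the AP-1 subunit gene, went the other way, from 578, 602, 545, 556 and 557 CPM to 1004, 997, 1037, 846 and 777 CPM (0.70 ± 0.06). Atf3, a stress- and activity-induced bZIP factor gene, was at 43.4, 48.3, 26.6, 35.5 and 74.8 CPM against 159, 164, 177, 120 and 163 CPM (1.84 ± 0.17), and both Fos and Atf3 were separated between the arms in all libraries. Npas4, the neuron-specific activity-dependent factor gene, was at 635, 589, 525, 588 and 668 CPM against 899, 800, 854, 769 and 525 CPM, with 4 of 5 preparations higher and overlapping arms. Its difference did not pass the test in edgeR (0.33 ± 0.11, adjusted p = 0.059), and it did pass without preparation 6 (0.24) and without preparation 8 (0.50). Egr1 was at 738, 739, 660, 684 and 828 CPM against 893, 830, 977, 608 and 675 CPM, with overlap and 3 of 5 preparations higher (0.10 ± 0.10, edgeR adjusted p = 0.52), and its sign turned without preparation 6 (-0.01).

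Members of the Nr4a, Krüppel-like and dual-specificity phosphatase families differed in direction, while the AP-1 subunits did not. Of the Nr4a orphan receptors, Nr4a1 was lower while Nr4a2 (1.51) and Nr4a3 (0.88) were higher. Of the Krüppel-like factors, Klf2 (-1.13) and Klf6 (-0.68) were lower, Klf10 (2.15) was higher, and Klf4 (-0.38, edgeR adjusted p = 0.18) was not called. Of the AP-1 subunits, all of Fos, Fosb (0.95), Fosl1 (1.65), Fosl2 (1.23), Jun (0.37), Junb (0.32) and Jund (0.25) were higher in the long arm. Of the dual-specificity phosphatases on the kinase list, Dusp1, Dusp6 and Dusp5 (-0.22) were lower, Dusp14 (1.27) and Dusp4 (0.33) were higher, and Dusp2 (0.27) was not called.

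Genes were also counted in lists drawn up by function. Of 26 IEG transcription factors, 16 were higher and 4 lower in the long arm, with a median log2 fold change of 0.43 against -0.01 over all genes tested. Of 32 genes of secreted ligands and neuropeptides, 20 were higher and 3 lower (median 0.55), with Crh (1.44), Nptx2 (1.13), Cartpt (1.07), Penk (1.03) and Scg2 (0.98) next to Inhba and Bdnf, and Gdf15 (-0.62) and Ntf3 (-0.37) next to Ccn1. Without the block, 15 of these were higher. Of 22 synaptic effectors, 15 were higher and 2 lower (median 0.39), where Cpeb3 (1.55), a translational regulator, Gpr3 (1.35), a constitutively active receptor gene, Ptgs2 (1.07), the inducible cyclooxygenase gene, and Pcdh8 (0.79), a protocadherin gene, followed Homer1 in size, and Arc and Synpo (-0.19) were the lower ones.

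Regulators that act back on signalling were more often higher, and those that act on mRNA stability more often lower. Of 30 kinase-pathway feedback regulators, 17 were higher and 6 lower (median 0.33), with Gadd45b (1.43), Sik2 (1.19) and Crem (1.14) among the higher ones and Gadd45g (-0.39) and Spry1 (-0.24) among the lower ones beside Dusp1, Trib1 and Dusp6. Of 14 mRNA decay and antiproliferative factors, 2 were higher and 8 lower (median -0.36), the only list of the 13 with more lower than higher members. Its lower members included Zfp36 (-0.64), Zfp36l1 (-0.56) and Zfp36l2 (-0.80), whose proteins bind AU-rich elements and promote decay of short-lived mRNAs, and its higher members were Csrnp1 (1.07) and Csrnp3 (0.57). Without the block, 5 of these 14 genes were lower.

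**Figure D2:**
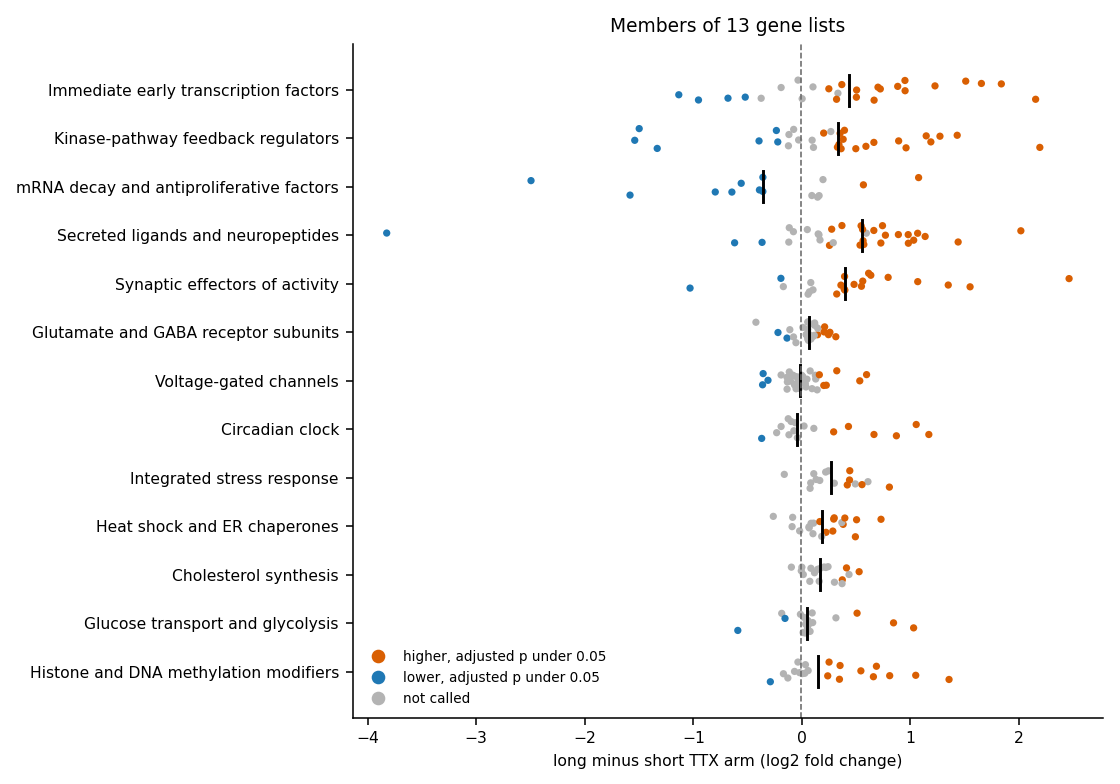
Log2 fold changes of the long over the short TTX arm (x axis) for members of 13 gene lists. Each point is 1 gene, coloured by edgeR's call, black bars are list medians and the dashed line is the median of all genes tested. The mRNA decay list alone has more members lower (8) than higher (2), and receptor and channel genes cluster around 0.

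Most receptor and channel genes were not called between the arms. Of 29 glutamate and GABA receptor subunit genes, 6 were higher and 2 lower, with Gabrg1 (0.31) and Gabrg3 (0.26) the most positive of the called genes and Grm7 (-0.22) the most negative, and the median was 0.07. Without the block, 1 was higher and 1 lower. Of 38 voltage-gated channel genes, 6 were higher and 3 lower (median -0.02), with Kcna1 (0.60), Kcnf1 (0.53) and Kcna4 (0.32) among the higher ones and Kcnv1, Kcns1 (both -0.36) and Kcng1 (-0.31) lower. Without the block, 3 were higher and 1 lower. The shares of called members on these lists can be read against the background of 11.5% higher and 10.1% lower over all genes.

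Clock, glucose and chromatin genes were counted against the same background of 11.5% higher and 10.1% lower over all genes. Of 17 clock genes, 6 were higher and 1 lower, namely Per2 (1.17), Per1 (1.05), Rorb (0.87), Cry2 (0.66), Cry1 (0.43) and Nr1d1 (0.29) against Dbp (-0.37), and the activator genes Clock (-0.06) and Arntl (-0.12) as well as the repressor gene Per3 (-0.19) were not called. Without the block, 6 were higher and 0 lower, and without preparation 6, 6 were higher and 3 lower. Of 20 genes of glucose transport and glycolysis, 3 were higher, the glucose transporter genes Slc2a3 (1.03) and Slc2a1 (0.84) and the glycolytic regulator Pfkfb3 (0.51), and 2 were lower, the lactate exporter gene Slc16a3 (-0.59) and Pfkl (-0.16). Without the block, 3 were higher and 0 lower. The shares of called members on this glucose list are near those over all genes. The enzymes Gapdh (0.03), Pkm (0.05) and Ldha (0.03) were not called. Of 20 modifiers of histones and DNA methylation, 10 were higher and 1 lower, with the demethylase genes Kdm7a (1.36), Jmjd1c (1.05), Kdm6b (0.81) and Kdm3a (0.66), the methyltransferase gene Setd7 (0.54) and the dioxygenase gene Tet3 (0.69) among the higher ones. The count of higher modifiers was 10 under each alternative tried, and that of lower ones was between 1 and 4.

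The counts on the stress and sterol lists depended on the block, on single preparations and on the low-count filter. Of 21 heat shock and ER chaperone genes, 10 were higher and 0 lower, with Hspa1b (0.73), Dnajb9 (0.49) and Hsph1 (0.38), and 5 were higher without the block and 15 without preparation 6. Of 16 genes of the integrated stress response, 5 were higher and 0 lower, with Sesn2 (0.81) and Ppp1r15a (0.55), with 2 higher without the block between 2 and 7 higher when 1 preparation was left out, and 11 higher without a low-count filter. Of 19 cholesterol synthesis genes, 3 were higher and 0 lower. Cyp51, a lanosterol demethylase gene, was at 319, 393, 222, 439 and 329 CPM in the short arm against 400, 503, 538, 519 and 460 CPM in the long arm, so the short library of preparation 6 was the lowest. The same library was the lowest of the short arm for Sc5d (114 CPM) and Idi1 (17.7 CPM), and without preparation 6 the difference of Cyp51 was 0.35 in place of 0.53. Without preparation 6, 5 members were higher and 3 lower, and without preparation 8, 1 was higher. Without the block 1 was higher, in the fit of all 45 libraries 8 were, and without a low-count filter 11 were.

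The difference between the arms was then split into the part that stood when TTX was added and the part that arose during the block, using the 5 libraries of 0.5 h Bic and the 5 of 1 h Bic from the same preparations. At TTX addition, 242 of 15440 genes (1.57%) were higher and 51 (0.33%) lower at 1 h than at 0.5 h Bic. Without the block term for preparations these numbers were 146 and 5, and the lower count was between 8 and 62 when 1 preparation was left out (15 without preparation 1 or 6, 8 without 7 and 17 without 8). The change from the level at TTX addition was called for 92 higher (0.572%) and 12 lower (0.0746%) of 16079 genes during the short block, and for 2299 higher (14.3%) and 2050 lower (12.7%) during the long block. The long and the short change differed for 1204 genes upwards (7.49%) and 731 downwards (4.55%) by edgeR's interaction test. Without the preparation term these numbers were 525 and 260, without preparation 8 they were 608 and 426, without preparation 1 the first was 767, and without preparation 3 the second was 472. Among genes higher in the long arm, the median log2 difference at TTX addition was 0.01 and the median difference in the change during the block was 0.31. Among genes lower in the long arm, these medians were -0.03 and -0.25. The genes were chosen on the TTX libraries, which enter the block part and not the starting part, so these medians are a description.

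Of the genes lower in the long arm, those with the largest differences fell in the long block. From its level at TTX addition, Ccn1 changed by -0.34 during the short block (edgeR adjusted p = 0.40) and by -5.33 during the long block, and the difference was -4.99 ± 0.18. Btg2 changed by 0.25 and -3.16 (difference -3.41 ± 0.18), Dusp1 by -0.01 and -2.55 (-2.55 ± 0.20), Trib1 by 0.27 and -2.32 (-2.59 ± 0.16) and Kcnj2 by 0.09 and -2.34 (-2.43 ± 0.18), and none of these 5 genes was called during the short block. Nr4a1 rose during the short block by 0.89 (edgeR adjusted p = 0.0038) and fell during the long block by 1.53. Klf4, a Krüppel-like factor gene, was 2.43 higher at 1 h than at 0.5 h Bic, changed by 0.67 during the short and -2.15 during the long block (-2.81 ± 0.30), and ended at overlapping levels in both arms, 17.5 ± 6.99 and 13.5 ± 4.79 CPM (SD, n = 5 each).

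Rising genes divided by when they rose. Klf10 (0.23 during the short and 2.58 during the long block), Zfp516 (-0.05 and 2.07), Baz1a (0.06 and 2.13), Rnf217 (0.01 and 2.04) and Aff1 (-0.14 and 1.75), a transcription elongation factor gene, were not called at TTX addition or during the short block and rose only in the long block of these comparisons. Homer1 rose by 0.38 during the short and by 2.33 during the long block. Nr4a2 rose by 1.11 during the short and by 1.16 during the long block, with a difference of 0.05 ± 0.16 (edgeR adjusted p = 0.88), and was already 1.47 higher at TTX addition. Atf3 (1.19 and 1.02, difference -0.17 ± 0.26) and Csrnp1 (1.11 and 0.98, difference -0.13 ± 0.16) also rose in both blocks, without a called difference between them. On the IEG list, the change was more negative in the long block for 12 of 26 genes and more positive for 1, Klf10, and during the short block 12 of the 26 still rose and 0 fell.

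**Figure D3:**
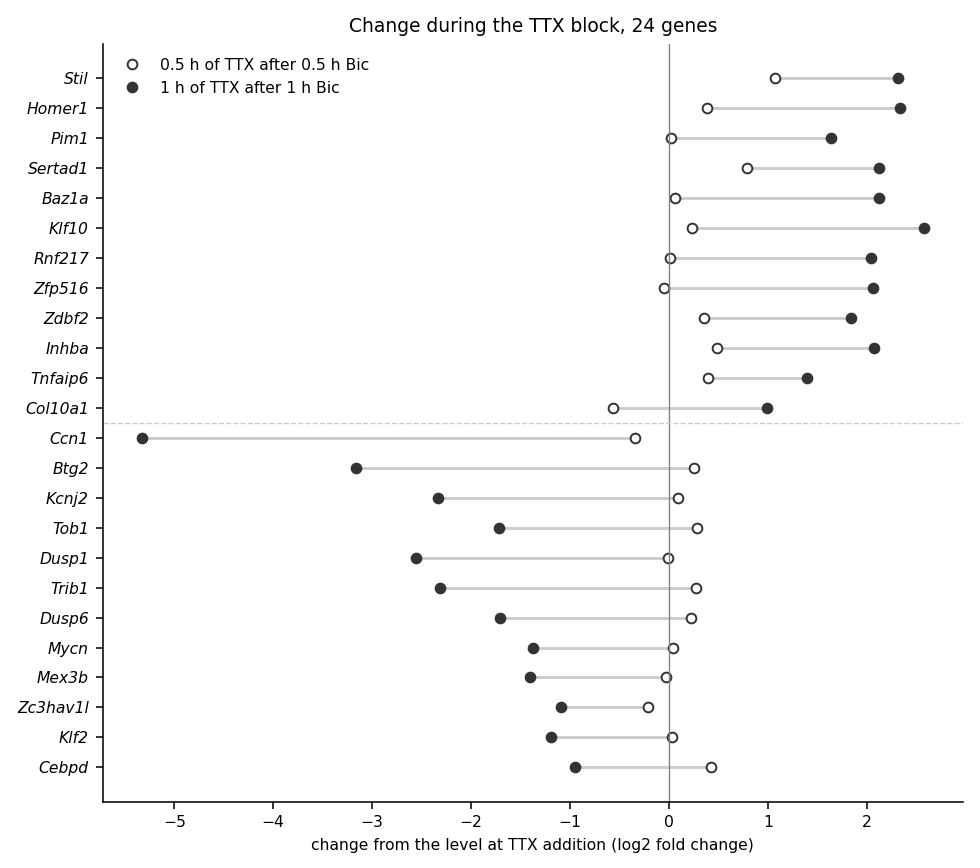
Change during the TTX block (log2 fold change from the level at TTX addition, x axis) for the 24 genes with the largest differences between the arms, in the order of that difference. Open circles are the short block and filled circles the long block. All 12 genes that are lower in the long arm fall in the long block (Ccn1 by 5.33), while their short-block values lie between -0.34 and 0.43.

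A set of 21 genes had risen from 0.5 to 1 h Bic and was nevertheless lower in the long arm. They were Ccn1, Btg2, Tob1, Dusp1, Trib1, Dusp6, Hlx, Arc, Nr4a1, Cbx8, Ier2, Adamts1, Fbxo33, Gadd45g, Pnrc1, Tob2, Irf2bp2, Dusp5, Fzd1 and 2 gene models. All 21 also differed in the change during the block by the interaction test, which shares the TTX libraries with the choice of the set. In the opposite direction, 10 genes were lower at 1 h than at 0.5 h Bic and higher in the long arm, among them Zfp85, Zfp786, Zfp748, Zfp37, Dyrk3 and Dcp1a. By contrast, 176 genes were higher in both comparisons, which is 9.43% of the genes higher in the long arm and 72.7% of those higher at 1 h Bic.

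The same total times without TTX were given by the libraries of 1 and 2 h uninterrupted Bic, which share no library with the arms. From 1 to 2 h Bic, 1685 of 16043 genes (10.5%) rose and 1929 (12%) fell. Of the genes tested in both, 1141 were higher in the long arm and at 2 h Bic, 59.8% of the former and 67.8% of the latter, and 976 were lower in both, 57.9% and 50.6%. Opposite calls were made for 27 genes higher in the long arm and for 10 genes lower in it. By the interaction test, the arm difference was more positive than that of uninterrupted Bic for 260 of 16377 genes (1.59%). It was more negative for 61 (0.372%), where a larger fall with TTX counts as more negative. Without the preparation term these numbers were 67 and 16, and with 1 preparation left out they lay between 106 and 175 and between 27 and 53, lowest without preparation 3. The first was 148, 167 and 163 without preparations 6, 7 and 8, and the second was 33 without preparation 7. From 1 to 2 h Bic, 792 and 976 genes were called without the preparation term. Several of the genes that were strongly higher had interactions that did not pass the test, such as Inhba (2.02 with TTX and 2.17 without), Rnf217 (2.12 and 1.87), Zfp516 (2.11 and 1.88) and Bdnf (0.98 and 0.82), with interactions of -0.18 ± 0.12, 0.24 ± 0.09, 0.24 ± 0.09 and 0.16 ± 0.10. The difference was larger with TTX than with Bic alone for Homer1 (2.46 and 1.98, interaction 0.47 ± 0.11, edgeR adjusted p = 0.030), Zdbf2 (2.08 and 1.55, 0.52 ± 0.12) and Cpeb3 (1.55 and 1.10, 0.45 ± 0.08).

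Trib1 went in opposite directions with and without TTX. It was 0.69 higher at 2 h than at 1 h Bic on the log2 scale, and lower in the long than in the short TTX arm (means of 15.4 and 42.5 CPM), an interaction of -2.18 ± 0.18. Nr4a1 (0.46 and -0.95), Klf6 (0.20 and -0.68), Adamts1 (0.60 and -0.51), Fbxo33 (0.64 and -0.41) and Gadd45g (0.44 and -0.39) turned in the same way, and so did Dusp5, Spry1 and Fzd1. Ccn1 (-0.70 and -3.82), Btg2 (-0.54 and -2.49) and Kcnj2 (-0.41 and -2.11) fell in both, and fell further with TTX by -3.13, -1.94 and -1.71. Pim1 rose less with TTX (2.19) than without (2.89), and Penk, the enkephalin precursor gene, likewise (1.03 and 1.73).

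Genes for which TTX gave the more positive difference were led by Klf10 (1.65 ± 0.10), Ccnj (1.48 ± 0.13), a cyclin gene, and Ier5l (1.41 ± 0.18). Ccnj was at 5.73, 6.26, 6.09, 7.10 and 7.00 CPM in the short arm and at 13.8, 15.4, 11.8, 17 and 16.6 CPM in the long arm, above its control mean of 8.55 CPM, whereas Bic alone had taken it down to 5.36 CPM at 2 h. Zfp85 (1.36), Zfp273 (1.31) and Slc35g1 (1.31) followed. Zfp273 was at 2.67, 2.35, 2.57, 2.44 and 2.22 CPM in the short and 2.14, 2.88, 3.18, 3.15 and 2.88 CPM in the long arm, so the arms overlapped and were not called apart (0.22), while its level went from 4.28 CPM in the control to 1.11 CPM after 2 h Bic. Among the 27 genes that were higher in the long arm and fell from 1 to 2 h Bic were also Lpar2, Sirt1, a deacetylase gene, Kdm5b, Dcp1a, Ddx20 and Sprtn.

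**Figure D4:**
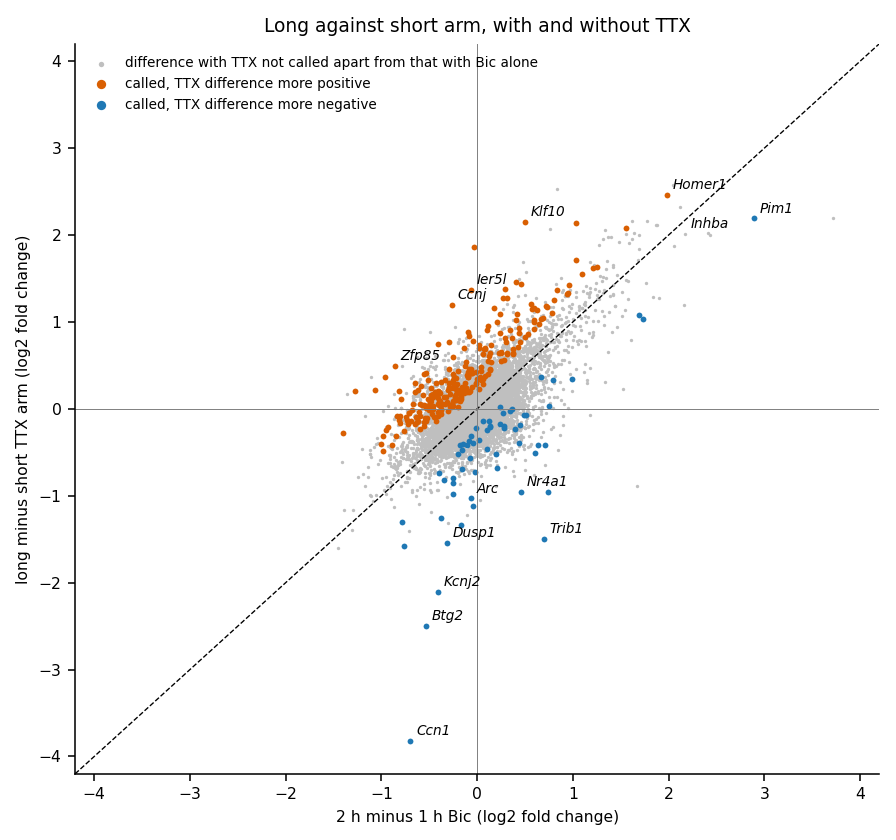
Log2 fold change of the long over the short TTX arm (y axis) against that of 2 h over 1 h Bic (x axis), 1 point per gene tested in both. The dashed line marks equal values, and colours mark genes whose values were called apart by edgeR's interaction test. Klf10, Ccnj and Ier5l lie above the line, and Ccn1, Btg2, Kcnj2 and Trib1 lie far below it.

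Zinc finger genes recurred among these names, and all genes whose symbol is Zfp followed by a number were therefore counted, a choice made after their values were seen and left without a test. Of 364 such genes, 58 (15.9%) had a more positive difference with TTX and 2 a more negative one, against 1.59% and 0.372% of all genes. They made up 22.3% of the 260 genes in the first direction. From 1 to 2 h Bic, 198 of 361 (54.9%) fell and 19 (5.26%) rose, against 12% and 10.5% of all genes, with a median of -0.29. Between the TTX arms, 101 of 366 (27.6%) were lower and 42 (11.5%) higher, against 10.1% and 11.5% of all genes, with a median of -0.06. The difference with TTX minus that with Bic is made from these 2 comparisons, so it is not a separate result. Reads that map to several places were not counted, so values of members with near-identical copies are uncertain.

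**Figure D5:**
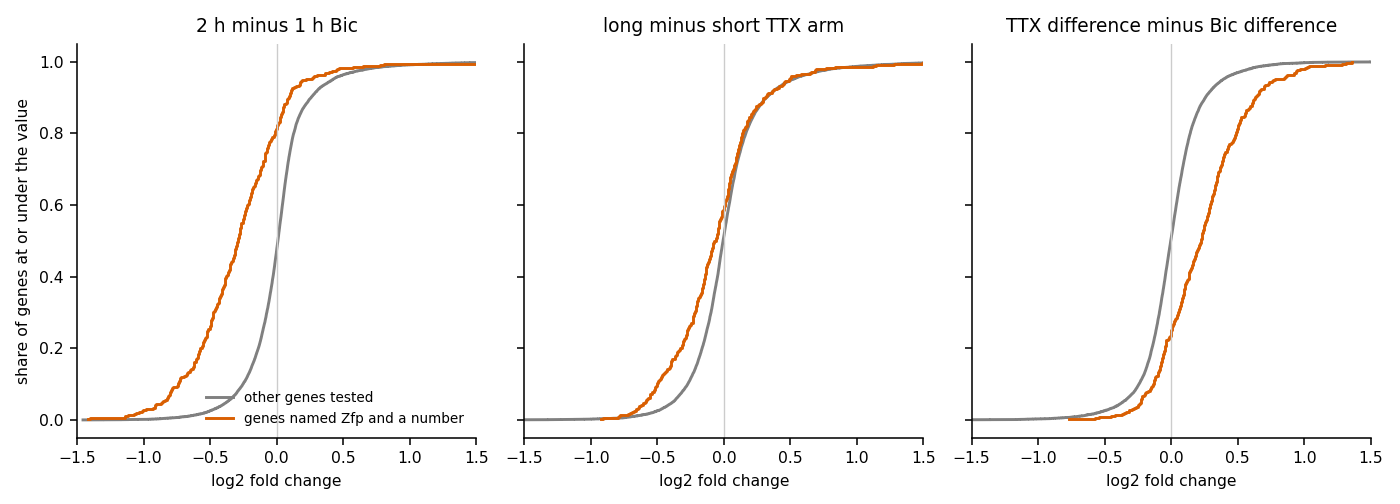
Cumulative shares of genes (y axis) by log2 fold change (x axis) in 3 comparisons, for genes named Zfp and a number (orange) and other genes tested (grey). The orange curve lies to the left from 1 to 2 h Bic (median -0.29) and to the right for the difference of the 2 differences (median 0.22). Between the TTX arms its median is -0.06, against -0.01 over all genes, with 27.6% lower against 10.1%. The third comparison is made from the first 2 and is not a separate result.

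Genomic spans were compared by direction. Protein-coding genes tested had a median genomic span of 26 kb. The 20 protein-coding genes lower by at least 2-fold in the long arm had a median span of 5.19 kb, and none spanned over 100 kb, against 16% of all tested. All 1651 protein-coding genes lower in the long arm had a median of 26.8 kb, so the short span was that of these 20 genes. Genes higher by at least 2-fold had a median of 21.6 kb, and all genes higher in the long arm 33.8 kb. Genes higher at 1 h than at 0.5 h Bic had a median of 10.2 kb, and genes whose change was more positive in the long than in the short block 40.7 kb. These are descriptions over genes, which are not independent replicates.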

How the data were processed

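Polyadenylated RNA from hippocampal primary cultures was sequenced single-end from stranded libraries. Raw counts per gene were deposited by the authors, who mapped reads to GRCm38 with STAR 2.5.4b and counted them with featureCounts 1.6.5 in stranded mode without multi-mapping or multi-overlapping reads, as the study's methods and the submitters' processing notes state. Reads shared by near-identical genes were thus lost, which lowers the counts of such genes. All count columns were matched to samples by the labels. Two-sided tests were run with edgeR 4.0.16 (R 4.3.3), with filterByExpr, TMM scaling, glmQLFit and glmQLFTest, and Benjamini-Hochberg adjusted p under 0.05 was called. The culture preparation was a block, because the labels give it for every library, whereas the study's methods name none for its DESeq2 analysis. Deviations of the 2 arms from their means correlated between 0.106 and 0.721 within preparations (13500 genes). The short and the long change during the block, and the difference with TTX and with Bic alone, were compared by interaction terms in fits of 20 libraries. CPM values are counts scaled to TMM-adjusted library sizes, without a correction for gene length, so levels were compared within genes only.

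Genes were named if called, with a mean CPM of at least 1 and 1 sign in all preparations (the 12 largest in each direction between the arms, and the 6 largest in each direction for each interaction), if followed by the study (11 genes), or if among the 4 list members with the lowest p. Gene models were left out of the first 2 kinds, and other list members were named after their values were seen. Members and lists were chosen with earlier results of these data known. Gene positions are from GENCODE vM21. Promoter shares leave out 1 chromosome. Alternatives were no block, other filters, RLE scaling, DESeq2 1.42.0, a fit of all 45 libraries and leaving out each preparation. On simulated counts for the arms, 200 of 16627 genes were changed by at least 1.5-fold. Of genes changed 1.5-fold, 92% were recovered, and 5.77% of calls were false. For TTX against Bic alone, these rates were 86% and 4.48%. Smaller changes and larger numbers of changed genes were not simulated, so the rates do not carry over to all calls. The symbols Ddit3 and Aldoa belong to 2 gene IDs each and were left out. Some single genes are not reported here.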

Additional observations from a re-analysis of the deposited data

Results flagged for a closer look

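In 8 of 166 groups of 5 libraries, 1 library stood apart from the others by Dixon's criterion, where chance gives about 1 in 20. In the long arm these were Klf2 in preparation 3 (1.46 CPM), Aff1 in preparation 7 (52.7 CPM), and Zfp273 (2.14 CPM), Gpr3 (23.8 CPM) and Hspa1b (14.4 CPM) in preparation 1. In the short arm they were Bdnf in preparation 7 (195 CPM) and Kcnf1 (79.2 CPM) and Pfkfb3 (29 CPM) in preparation 8.

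The change during the block differed between the long and the short block, by edgeR's interaction test, for Klf10 (2.35), Zfp516 (2.12), Baz1a (2.07), Rnf217 (2.03), Homer1 (1.95) and Aff1 (1.89), and in the other direction for Ccn1 (-4.99), Btg2 (-3.41), Klf4 (-2.81), Trib1 (-2.59), Dusp1 (-2.55) and Kcnj2 (-2.43), all on the log2 scale. The long minus short difference was more positive with TTX than with Bic alone for Klf10 (1.65), Ccnj (1.48), Ier5l (1.41), Zfp85 (1.36), Zfp273 (1.31) and Slc35g1 (1.31), and more negative for Ccn1 (-3.13), Trib1 (-2.18), Btg2 (-1.94), Kcnj2 (-1.71), Nr4a1 (-1.38) and Dusp1 (-1.21).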

How the results depend on the processing

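Without the replicate block, the counts of genes higher and lower were 1194 and 965 between the arms, 146 and 5 for 1 against 0.5 h Bic, 792 and 976 for 2 against 1 h Bic, 525 and 260 for the change during the block, and 67 and 16 for TTX against Bic alone. With DESeq2, no block and every gene with at least 1 read, they were 901 and 1089 for 2 against 1 h Bic, 680 and 358 for the change during the block, 152 and 31 for TTX against Bic alone, and 18 lower for 1 against 0.5 h Bic. DESeq2 with the block gave 33 lower for 1 against 0.5 h Bic and 92 lower for TTX against Bic alone. Without a low-count filter, 377 and 131 were called for 1 against 0.5 h Bic and 488 and 213 for TTX against Bic alone, and the fit of all 45 libraries gave 96 lower for 1 against 0.5 h Bic. With 1 preparation left out, the counts ranged from 1375 to 2178 higher and 1162 to 1899 lower between the arms, 166 to 244 and 8 to 62 for 1 against 0.5 h Bic, 1358 to 1522 and 1530 to 1782 for 2 against 1 h Bic, 608 to 930 and 426 to 573 for the change during the block, and 106 to 175 and 27 to 53 for TTX against Bic alone. Egr1, not called, ranged from -0.012 without preparation 6 to 0.20 without preparation 8. Of 77 called named genes, 69 were called in all 12 alternatives. Among the genes that lost their calls without the block were Zfp85, Gabrg1, Gabrg3, Nupr1, Slc7a11, Sc5d and Slc16a3. List counts under the alternatives were added after seeing the data. The causes were not tested.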
